A study of Homo sapiens with 18 samples.

Results

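The S100 calcium-binding proteins described here are 10 genes, S100A2, S100A4, S100A6, S100A7, S100A8, S100A9, S100A10, S100A11, S100A14 and S100P. They were chosen by name, and their Ensembl identifiers were found in the deposited table for all 10 of 10, among 16575 genes. Levels are given in CPM of CAGE-seq (Cap Analysis of Gene Expression), which reads the capped 5′ end of RNA. Because each RNA molecule gives 1 tag at its start, CPM does not grow with gene length, and the levels of different genes were set side by side on this scale. The samples were 18 libraries from 3 lines of bladder carcinoma cells, which are CAL-29, HT-1376 and RT-112, and the study asked how WWOX alters the pathways that the transcription factors AP-2α and AP-2γ activate. Each line was transduced 2 times with lentivirus. The first transduction carried WWOX (W) or a blank control (K), followed by puromycin, and the second carried AP-2α (A), AP-2γ (C) or a blank control (K), followed by G418. The 6 variants are thus the double control KK, KA with AP-2α, KC with AP-2γ, WK with WWOX, WA with WWOX and AP-2α, and WC with WWOX and AP-2γ. All libraries, controls included, come from cells that passed through both viruses and both antibiotics, the transgenes were driven by a CMV promoter, and a line and variant had 1 library. The spread within a line is therefore a spread between transductants of that line, and p-values measure no more than this spread.

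The libraries held 13357102 to 17958572 recovered reads that fell on genes, and 1 read was worth 0.0526 to 0.0709 CPM. The library labelled CAL-29 KC stood apart before any S100 gene was considered. Over 12991 genes its median correlation of log2 CPM was 0.94 with the HT-1376 libraries and 0.742 with the other CAL-29 libraries. Because of these correlations it is shown apart, the results rest on 17 libraries, and the values with all 18 are given where they differ. Of the 10 genes, 7 lay inside the HT-1376 range in this library and 4 inside the range of the other CAL-29 libraries. These counts say little, because S100A7, S100A8 and S100A9 lay inside both ranges and some HT-1376 ranges were wide, 198-fold for S100A2. Of the introduced genes, TFAP2C (AP-2γ) was at 264 CPM in KC of RT-112 against 58 CPM in its KK and at 214 against 158 CPM in HT-1376, and TFAP2A (AP-2α) at 18 CPM in KK and 46.8 CPM in KA of RT-112, 69 and 101 CPM in HT-1376 and 35.4 and 49.9 CPM in CAL-29. With WWOX, TFAP2C had 143, 163 and 339 CPM in WC against 56.2, 69 and 93.1 CPM in WK of RT-112, of HT-1376 and of CAL-29, and TFAP2A 25.3, 69.9 and 86.7 CPM in WA against 20.3, 76.9 and 61.7 CPM in WK. By these levels the libraries labelled RT-112 WA and HT-1376 WA went against their labels in part. The former had more TFAP2C (180 CPM) than WC and the latter no more TFAP2A than WK. The latter point has a limit, because a CMV-driven transcript need not start at the native TFAP2A promoter. The calls that changed without these WA libraries, an alternative chosen after seeing the data, are given beside the results. WWOX itself had 22.3 CPM in WK of RT-112 against 26 CPM in KK, 18.6 against 22.4 CPM in HT-1376, and 155 against 63.7 CPM in CAL-29. In WA and WC it had 18.95 and 18.45 CPM in RT-112, 19.2 and 23.1 CPM in HT-1376, and 69.3 and 62.4 CPM in CAL-29. Of the W libraries, only WK of CAL-29 thus stood well above the KK of its line. A CMV-driven transcript need not start at the native WWOX promoter that CAGE-seq reads. The cells were checked against epithelial markers, of which 11 of 11 were in the table, with KRT7 at 312 CPM or above in all libraries. In RT-112, HT-1376 and CAL-29, 10, 9 and 11 of them reached 5 CPM in a library. The urothelial marker UPK3A was at 0 CPM in RT-112 and at most 0.11 CPM in HT-1376, and UPK2 was at most 0.79 CPM in HT-1376. Leukocyte markers, which matter for S100A8 and S100A9, were listed for 3 of 8 genes with a summed level of at most 6.09 CPM.

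S100 proteins are small EF-hand proteins that mostly act as dimers, change shape on binding calcium and then bind partner proteins. Some work inside the cell on the cytoskeleton and on annexins. Others are released and act as alarm signals or bind metal ions and so restrict microbes. In stratified and transitional epithelia, several of them change with differentiation, injury and inflammation, and most of their genes lie together in the epidermal differentiation region of chromosome 1.

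By GENCODE 44 on GRCh38, 9 of the 10 genes lie on chromosome 1 within 1634072 bases, in the order S100A10, S100A11, S100A9, S100A8, S100A7, S100A6, S100A4, S100A2 and S100A14. S100P (ENSG00000163993.7, chr4:6693878-6697170) is on chromosome 4. S100A9 (ENSG00000163220.11, chr1:153357854-153361023) is on the plus strand and S100A8 (ENSG00000143546.10, chr1:153390032-153391073) on the minus strand, with 29008 bases between them. S100A7 (ENSG00000143556.9) is at chr1:153457744-153460651, S100A4 (ENSG00000196154.12) at chr1:153543613-153550136, S100A2 (ENSG00000196754.13) at chr1:153561108-153567890 and S100A14 (ENSG00000189334.9) at chr1:153614255-153616986, all on the minus strand. S100A3 lies inside the S100A4 locus on the same strand, and S100A7 has the near-identical copy S100A7A, so that the reads of these genes are uncertain between them.

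Promoter sequence is shown for 6 genes whose levels the results turn on, because CAGE-seq reads the start of the RNA. The start sites are those of RefSeq, and the positions of the tags themselves were not analysed here. RefSeq promoters (GRCh38.p14) were found for all 10 genes, as 13 start sites. TATAAA, the core of the TATA box, was searched on both strands in 250 bases before to 50 bases after each start and was present at 6 of 13 start sites of 5 genes (S100A4, S100A7, S100A8, S100A9 and S100P), against 11.5% of all 35116 promoters. The 6 start sites include 2 of S100A8 whose windows overlap and hold the same copy. The AP-2 motif GCCNNNGGC was present in S100A2, S100A6 and S100A7 (3 of 13 start sites, 23.2% of all promoters), and the AP-1 motif TGANTCA in S100A2 alone (1 of 13, 7.71% of all promoters). The TATAAA copies of the 5 genes started at base -28 to -31 from the start site, apart from the second S100A8 window at base -126. Below, the 100 bases before a start site are given 5′ to 3′ on the gene's own strand, with TATAAA in capitals, GCCNNNGGC also in capitals in S100A7 and TGANTCA in capitals in S100A2.
S100A8 (chr1:153391074-153391173, minus strand): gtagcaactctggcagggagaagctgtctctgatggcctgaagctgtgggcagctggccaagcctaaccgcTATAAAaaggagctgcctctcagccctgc
S100A9 (chr1:153357754-153357853, plus strand): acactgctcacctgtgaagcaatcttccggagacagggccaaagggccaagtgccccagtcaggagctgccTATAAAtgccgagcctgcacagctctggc
S100A7 (chr1:153460652-153460751, minus strand): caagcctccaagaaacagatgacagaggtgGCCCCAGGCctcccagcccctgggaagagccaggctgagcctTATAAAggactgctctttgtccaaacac
S100A4 (chr1:153545807-153545906, minus strand): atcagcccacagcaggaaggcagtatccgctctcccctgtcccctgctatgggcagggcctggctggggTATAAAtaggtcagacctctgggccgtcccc
S100P (chr4:6693778-6693877, plus strand): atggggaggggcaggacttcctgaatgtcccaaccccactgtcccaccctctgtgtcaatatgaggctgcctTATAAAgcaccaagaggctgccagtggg
S100A2 (chr1:153565845-153565944, minus strand): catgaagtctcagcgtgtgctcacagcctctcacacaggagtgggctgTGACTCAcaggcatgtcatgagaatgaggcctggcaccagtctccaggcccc
A match of these letters is a description of the window, and binding was not measured.

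The 10 genes were abundant. Together they held 3.85% to 4.54% of the deposited CPM of RT-112 libraries, 3.60% to 8.86% of HT-1376 libraries and 0.986% to 4.34% of CAL-29 libraries. S100A6 (calcyclin), a cytoplasmic protein of proliferating cells, was the most abundant gene of the whole table in each RT-112 library, first or second in HT-1376, and between first and ninth in CAL-29. Its median level was 21803 CPM in RT-112, 24154 CPM in HT-1376 and 5817 CPM in CAL-29. In RT-112 it was followed by S100A9 with a median of 5497 CPM, S100A2 with 4165 CPM and S100A11 with 3131 CPM, whose ranges over the libraries overlapped from one to the next. The lowest in RT-112 were S100A4 with 316 CPM and S100A7 with 3.16 CPM, with no overlap between them. In HT-1376 the next in order were S100A9 with 11290 CPM and S100A8 with 9251 CPM, and only S100A6 at the top and S100P at the foot, with a median of 31.7 CPM, were separated from their neighbour in the order. In CAL-29 the medians fell from S100A6 through S100A11 with 3378 CPM, S100A2 with 2476 CPM, S100A8 with 1883 CPM and S100A9 with 1538 CPM to S100A14 with 45.2 CPM and S100A4 with 7.85 CPM, and the only gap between neighbours was below S100A10.

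**Figure D1:**
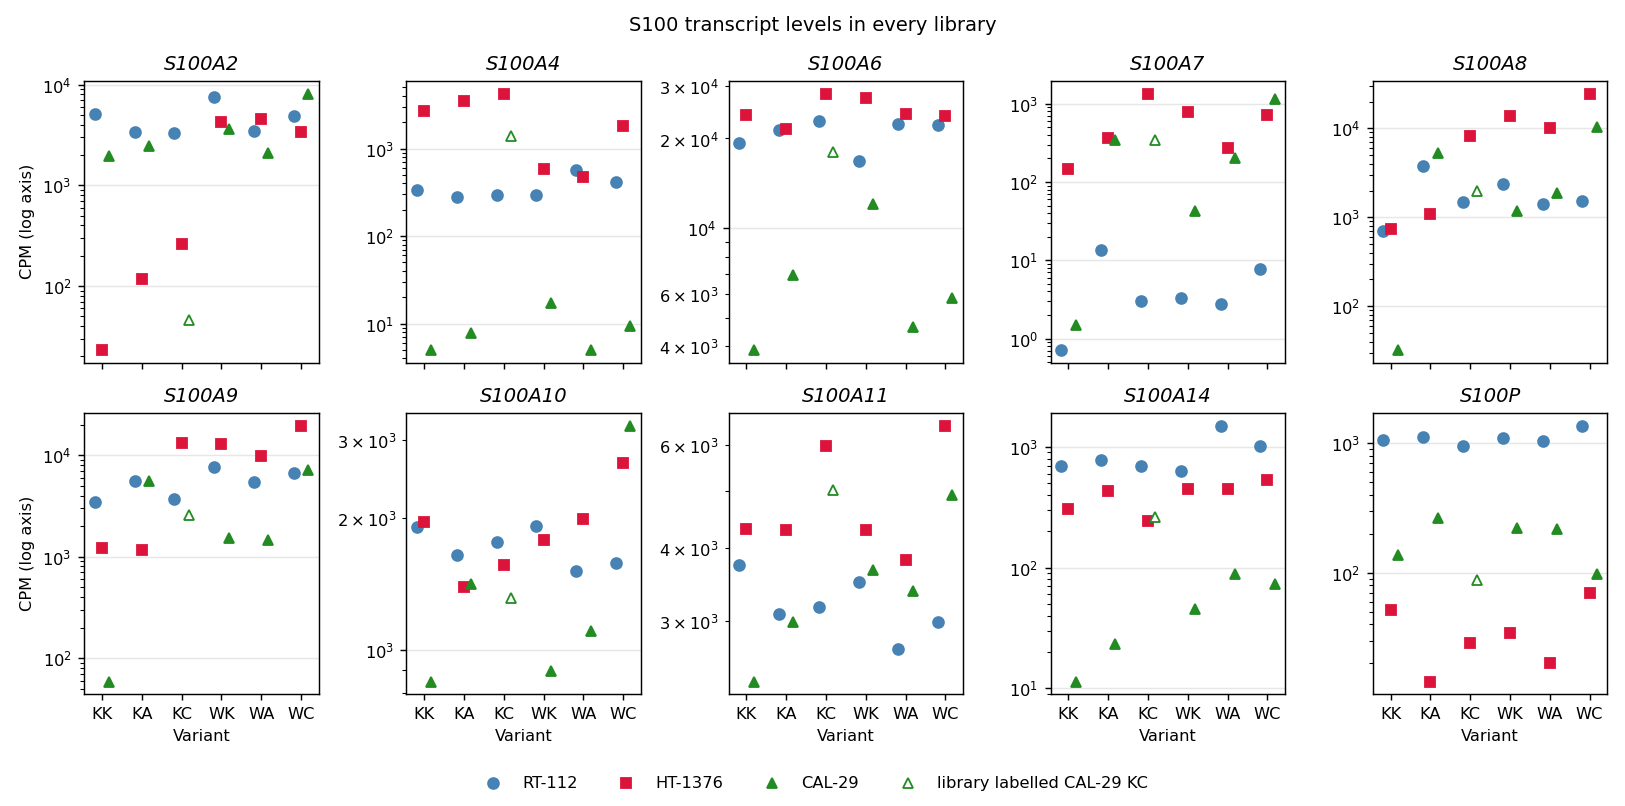
Level of each S100 gene (CPM, log axis, a separate scale per panel) in the 6 variants of RT-112 (circles), HT-1376 (squares) and CAL-29 (triangles), with the library labelled CAL-29 KC as an open triangle and 1 library per point. S100P and S100A14 keep the 3 lines apart, S100A2 is low in the 3 K libraries of HT-1376, and S100A8 in CAL-29 is 32.3 CPM in KK and 1179 CPM or more in the other variants.

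The share of the log2 variance that lay between the 3 lines separated the genes. It was 93.9% for S100P, 93.2% for S100A4, 88.2% for S100A14 and 87.4% for S100A6, against a median of 70.4% over all genes tested. S100A7 had 68.9% and S100A11 49.1%. For S100A2, S100A9, S100A10 and S100A8 it was 33.4%, 22.8%, 19% and 16.8%, so that most of their variance lay between the variants of a line. Single lines therefore give the better view of the latter 4 genes.

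Differences between the lines were fitted with limma on log2(CPM + 0.5) with terms for the line and both transductions, and p-values were adjusted by Benjamini-Hochberg over all 12991 genes that reached 5 CPM in 1 library or more. All 10 S100 genes passed this filter. Of the 10, 6 differed between HT-1376 and RT-112 (3 higher and 3 lower in HT-1376), 6 between CAL-29 and RT-112 (1 higher and 5 lower in CAL-29) and 8 between CAL-29 and HT-1376 (2 higher and 6 lower in CAL-29). The count of 8 became 5 with all 18 libraries and with edgeR, and was 4 to 7 with 1 variant left out. The same test called 62.1%, 72.5% and 60.8% of all genes, so the number of S100 genes called is close to the background. By direction, 42.5% of all genes were higher and 19.6% lower in HT-1376 than in RT-112, 56.5% higher and 16% lower in CAL-29 than in RT-112, and 42.6% higher and 18.2% lower in CAL-29 than in HT-1376, whereas more S100 genes were lower than higher in CAL-29. The median log2 difference of the 10 genes was 0.22, -1.21 and -2.004, whereas that of all genes tested was 0.43, 0.82 and 0.45. The ranges of the libraries did not overlap for 4 of 10 genes in each comparison, against 44.1%, 54.6% and 31.6% of all genes.

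S100A4 (metastasin, also known as FSP1), which binds non-muscle myosin and is linked to cell motility, showed the widest range of levels between lines. In the 6 HT-1376 libraries it lay between 471 and 4216 CPM with a median of 2232 CPM, in RT-112 between 276 and 563 CPM with a median of 316 CPM, and the CAL-29 values were 5.05 CPM in KK, 7.85 CPM in KA, 17.4 CPM in WK, 5.02 CPM in WA and 9.5 CPM in WC. CAL-29 was thus below every library of the other lines. The log2 difference was -7.46 (SE 0.50, adjusted p 5.58e-09) from HT-1376 to CAL-29 and 2.22 (SE 0.47, adjusted p 0.000751) from RT-112 to HT-1376, and the ranges of the latter pair overlapped. The level in the library labelled CAL-29 KC was 1384 CPM.

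S100P, a placental S100 protein that binds ezrin, had 954 to 1364 CPM in RT-112, 14.5 to 70.4 CPM in HT-1376, and 97.9 to 265 CPM in CAL-29 cells. No line overlapped another. HT-1376 was lower than RT-112 by a log2 difference of -5.08 (SE 0.33, adjusted p 2.97e-09), and CAL-29 was higher than HT-1376 by 2.44 (SE 0.35, adjusted p 2.76e-05). S100A14, an epithelial member of the family, was at 629 to 1500.0 CPM in RT-112, 245 to 531 CPM in HT-1376 and 11.3 to 87.9 CPM in CAL-29. Again the lines did not overlap, and CAL-29 was lower than RT-112 by -4.54 (SE 0.28, adjusted p 2.32e-09). S100A6 was lower in CAL-29 than in RT-112 by -1.75 (SE 0.27, adjusted p 3.66e-05), and its ranges in RT-112 and HT-1376 overlapped.

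S100A7 (psoriasin), an antimicrobial protein of inflamed and squamous epithelium, was at 0.72 to 13.5 CPM in RT-112 with a median of 3.16 CPM, at 144 to 1334 CPM in HT-1376 with a median of 541 CPM, and in CAL-29 at 1.51 CPM in KK, 341 CPM in KA, 42.4 CPM in WK, 200.01 CPM in WA and 1142 CPM in WC. HT-1376 stood above RT-112 without overlap, with a log2 difference of 6.78 (SE 0.87, adjusted p 6.68e-06). CAL-29 spanned both, and its difference from RT-112 was 4.58 (SE 0.92, adjusted p 0.00038). S100A2, an epithelial S100 protein known to bind p53, was lower in HT-1376 than in RT-112 by -2.87 (SE 0.83, adjusted p 0.00736), although 3 of the 6 HT-1376 libraries were inside the RT-112 range.

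S100A10 (p11), the partner of annexin A2, and S100A11, a partner of annexin A1, varied least in plain CPM. S100A10 stayed between 847 and 3236 CPM over the 17 libraries, and its adjusted p was 0.715, 0.239 and 0.138 in the 3 comparisons. S100A11 was higher in HT-1376 than in RT-112 by 0.58 (SE 0.18, adjusted p 0.00976). Under TMM scaling, which moved the median of all genes in the 3 comparisons to 0.09, 0.14 and 0.09 and the share of all calls that were higher from 68.4%, 78.0% and 70.0% to 52.0%, 54.3% and 52.6%, that difference was 0.21 (adjusted p 0.468). S100A11 in CAL-29 against RT-112 changed from 0.12 to -0.63 (adjusted p 0.039) with it, so the direction of this small difference depends on the scaling. TMM divides all genes of a library by a common factor, so it shifts S100A10 as well. The S100A10 values above are those of plain CPM and may not hold under TMM. The calls of S100A2, S100A7, S100A9 and S100A11 between CAL-29 and HT-1376 (adjusted p 0.0418, 0.0497, 0.0388 and 0.0435) and of S100A9 between CAL-29 and RT-112 (adjusted p 0.0496) lay close to the threshold. Without the library labelled HT-1376 WA both S100A9 calls were lost (adjusted p 0.0595 and 0.0585), and without the one labelled RT-112 WA that of S100A11 (adjusted p 0.0537).

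**Figure D2:**
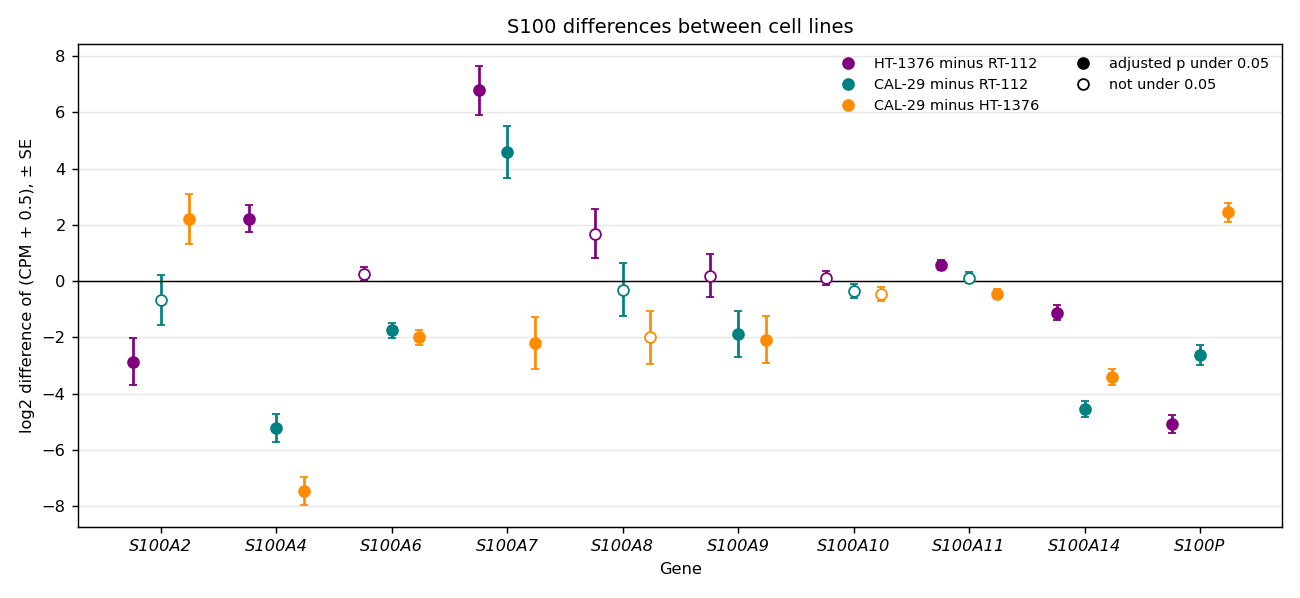
Difference of each S100 gene between cell lines (log2 of CPM + 0.5, points with SE, limma over 17 libraries), filled where the adjusted p was under 0.05. S100A4 spans -7.46 from HT-1376 to CAL-29 and S100A7 spans 6.78 from RT-112 to HT-1376. On this scale, without TMM, S100A10 stays within 0.5 of 0 in all 3 comparisons.

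WWOX-transduced and control libraries were next compared within each line, 3 W against 3 K libraries in RT-112 and HT-1376 and 3 against 2 in CAL-29. S100A2 and S100A4 moved in opposite directions in HT-1376. S100A2 in HT-1376 was at 23.2 CPM in KK, 118 CPM in KA and 260 CPM in KC, and at 4276 CPM in WK, 4599 CPM in WA and 3357 CPM in WC. Each W library was above each K library, by 12.9-fold or more when W and K were paired by the second transduction. The log2 difference was 5.49 (SE 0.58, adjusted p 0.00196 by limma). In RT-112 S100A2 was at 5075, 3418 and 3298 CPM in KK, KA and KC and at 7574, 3437 and 4893 CPM in WK, WA and WC, which overlap, and the difference was 0.38 (SE 0.58, adjusted p 0.976). The CAL-29 values were 1935 CPM in KK, 2476 CPM in KA and 3608, 2105 and 8095 CPM in WK, WA and WC, and the difference was 0.33 (SE 0.70, adjusted p 0.916). The W libraries of HT-1376 therefore had S100A2 levels inside the range of RT-112, and the K libraries stood below all other libraries except the one labelled CAL-29 KC, at 45.5 CPM. The difference between the lines was tested itself. The WWOX difference in HT-1376 exceeded that in RT-112 by 5.10 (SE 0.81, adjusted p 0.0294) and that in CAL-29 was below that in HT-1376 by -5.16 (SE 0.91, adjusted p 0.0224), tests that called 1.32% and 4.65% of all genes. CAL-29 minus RT-112 was -0.05 (SE 0.91, adjusted p 0.995). These calls were sensitive to single libraries. The HT-1376 minus RT-112 call was lost with 18 libraries (adjusted p 0.346), with limma-voom (0.0547), without each second transduction (0.0668 to 0.196), without the library labelled RT-112 WA (0.177) and without that labelled HT-1376 WA (0.0819). The CAL-29 minus HT-1376 call was lost with 18 libraries (-2.78, adjusted p 0.445), without second transduction A (0.188) and without either of these WA libraries (0.0567 and 0.0641).

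S100A4 in HT-1376 was at 2660.4 CPM in KK, 3528 CPM in KA and 4216 CPM in KC, against 576 CPM in WK, 471 CPM in WA and 1803 CPM in WC. The W libraries were all lower, and S100A4 fell by 2.11 on the log2 scale (SE 0.44, adjusted p 0.0218). In RT-112 the difference was 0.44 (SE 0.44, adjusted p 0.903) and in CAL-29 0.55 (SE 0.54, adjusted p 0.752). The test of the difference between lines did not pass for S100A4, with an adjusted p of 0.0856 for HT-1376 minus RT-112 and 0.0632 for CAL-29 minus HT-1376. These were the 2 of 10 S100 genes called for WWOX in HT-1376, where 9.71% of all genes were called. Both calls were lost when the library labelled CAL-29 KC entered the fit as a CAL-29 library (adjusted p 0.0589 for S100A2 and 0.341 for S100A4, with the same log2 differences). Without the libraries of 1 second transduction, S100A2 kept its call (4.49 without K, 5.59 without A and 6.39 without C, adjusted p 0.0132, 0.0490 and 0.00942), whereas S100A4 lost it each time (-2.07, -1.72 and -2.56, adjusted p 0.0541, 0.0521 and 0.0651). S100A4 also lost its call without the library labelled HT-1376 WA alone (-1.72, adjusted p 0.121). Fibroblast markers moved with these libraries. Of 6 listed, 4 were in the table, and their summed level was 5.4 to 16.1 CPM in the K and 40.9 to 63.9 CPM in the W libraries of HT-1376. All 3 that were tested, COL1A2, COL1A1 and THY1, were called higher with WWOX, with a median log2 difference of 1.90. The fourth, COL3A1, was at 1.51, 2.78 and 0 CPM in KK, KA and KC and at 0.11, 0.19 and 0.22 CPM in WK, WA and WC. Their part in the S100A2 and S100A4 results was not tested.

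S100A14 was called in CAL-29. The control libraries KK and KA had 11.3 and 23.2 CPM, and the W libraries 45.2 CPM in WK, 87.9 CPM in WA and 72.7 CPM in WC. The W libraries lay above both K libraries, and the difference was 1.92 (SE 0.30, adjusted p 0.0342), in a comparison that called 0.724% of all genes. This rests on 2 K libraries, and the call was lost when either was left out with its W partner (adjusted p 0.0638 without K and 0.0756 without A), without WC (adjusted p 0.125), with TMM scaling (adjusted p 0.0559), without the library labelled RT-112 WA or HT-1376 WA (adjusted p 0.0638 and 0.0517), and with 18 libraries, where the difference was 0.67 (adjusted p 0.667). In RT-112 and HT-1376 the difference of S100A14 was 0.44 (adjusted p 0.711) and 0.56 (adjusted p 0.178), and its excess in CAL-29 over RT-112 was 1.48 (SE 0.39, adjusted p 0.21), a test that called 0 of 10 S100 genes and 0.0539% of all genes. The W and K libraries of S100A14 did not overlap in HT-1376 either, with 444 to 531 CPM against 245 to 435 CPM.

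S100A8 and S100A9, which form the calprotectin dimer, were higher in the W libraries of HT-1376 without passing the test. S100A8 was at 733 CPM in KK, 1097 CPM in KA and 8283 CPM in KC, and at 13732, 10220 and 24439 CPM in WK, WA and WC. The groups did not overlap, but KC lay much nearer to the W libraries than to KK, and the difference was 3.00 (SE 1.08, adjusted p 0.11). S100A9 was at 1204, 1164 and 13156 CPM in KK, KA and KC and at 12842, 9738 and 19507 CPM in WK, WA and WC, where KC overlapped the W libraries and the difference was 2.35 (SE 1.02, adjusted p 0.174). In all, the W and K libraries did not overlap for 4 of 10 genes in HT-1376, against 35.6% of all genes, for 2 of 10 in CAL-29, against 18.8%, and for 0 of 10 in RT-112, against 21%. In RT-112 no gene of the table passed the test for WWOX (limma, 1019 genes at an unadjusted p under 0.05, 0 genes with edgeR), and the 10 S100 differences ranged from -0.13 to 0.64.

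**Figure D3:**
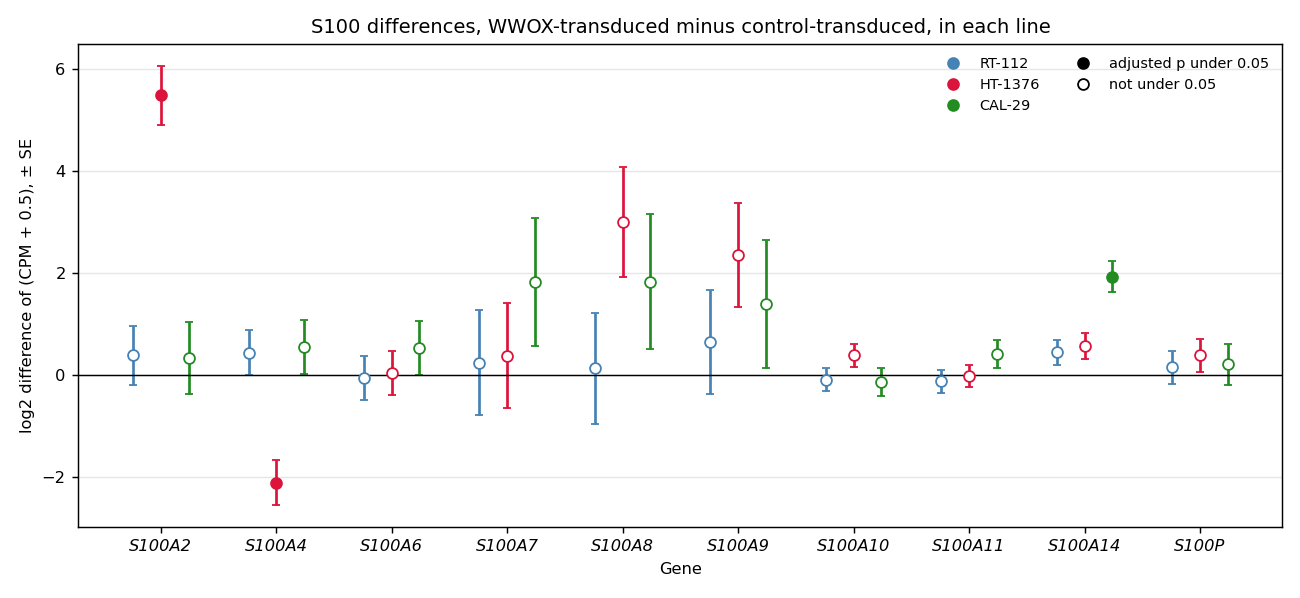
Difference between WWOX-transduced and control libraries within RT-112, HT-1376 and CAL-29 (log2 of CPM + 0.5, points with SE, limma over 17 libraries), filled where the adjusted p was under 0.05. The 3 filled points are S100A2 at 5.49 and S100A4 at -2.11 in HT-1376 and S100A14 at 1.92 in CAL-29.

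The double control KK had the lowest S100A7 and S100A8 of the variants in all 3 lines. S100A8 in RT-112 was at 702 CPM in KK, against 3758 CPM in KA, 1495 CPM in KC, 2389 CPM in WK, 1396 CPM in WA and 1541 CPM in WC. The KK of CAL-29 had 32.3 CPM, against 5337 CPM in KA, 1179 CPM in WK, 1883 CPM in WA and 10430 CPM in WC, and the KK of HT-1376 had 733 CPM, against 1097 to 24439 CPM. All 14 of the other libraries were above the KK of their line. The nearest to it was KA of HT-1376, with 1097 against 733 CPM, and the farthest WC of CAL-29, at 322.5-fold. S100A7 gave the same order against KK, with 0.72 CPM in KK and 2.74 to 13.5 CPM in the other variants of RT-112, 144 CPM and 268 to 1334 CPM in HT-1376, and 1.51 CPM and 42.4 to 1142 CPM in CAL-29. S100A9 followed with 1 exception, KA of HT-1376, at 1164 CPM against 1204 CPM in KK. The library labelled CAL-29 KC was also above the KK of CAL-29, with 1952 CPM of S100A8 and 347 CPM of S100A7. Of all genes, 0.431% had KK lowest in all 3 lines, and 15.3%, 16.1% and 14.7% in RT-112, HT-1376 and CAL-29 singly, where 3, 3 and 8 of the 10 S100 genes did. This count was made after the values were seen, 1 library carries KK in each line, and all the variants of a line share it.

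The variants were then compared with KK over the lines, without a term for the line. In these 5 comparisons 0 of 10 S100 genes and 0% of all genes passed (limma, smallest adjusted p 0.9998). Before adjustment, a p below 0.05 was reached by 37 genes for WK, 8 for KA, 14 for KC, 27 for WA and 78 for WC, and edgeR called 0 genes in each. The S100A8 differences from KK were 3.72 (SE 1.38) for WK, 3.45 (SE 1.38) for KA, 3.78 (SE 1.54) for KC, 3.54 (SE 1.38) for WA and 4.83 (SE 1.38) for WC, with unadjusted p of 0.0170, 0.0250, 0.0276, 0.0218 and 0.00340 in limma. These 5 values share the same KK libraries and are not independent of each other. With the cell line as a block, the adjusted p of S100A8 in WC/KK was 0.344. In the same order the differences of S100A9 were 3.08, 2.40, 3.48, 2.76 and 3.96, and those of S100A7 2.83, 4.08, 3.28, 2.98 and 4.74, with SE of 1.29 to 1.45 and 2.81 to 3.14. The other 7 genes ranged from -0.59 to 3.05.

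**Figure D4:**
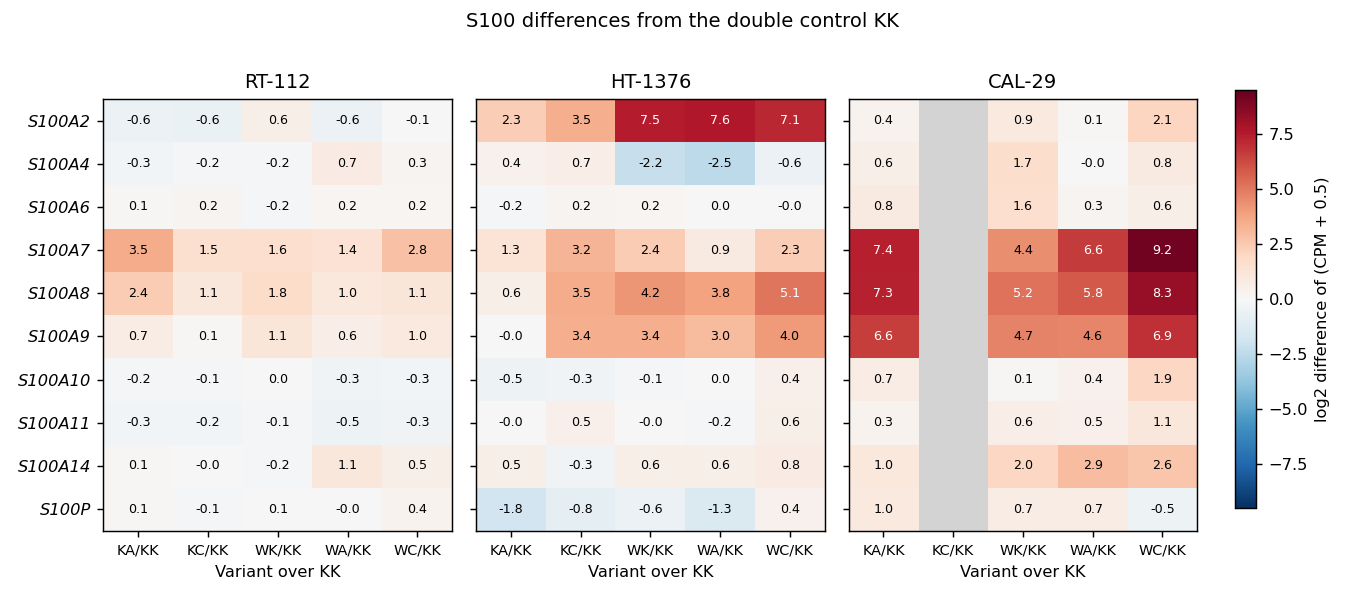
Difference of each S100 gene from the double control KK of the same line (log2 of CPM + 0.5, colour and printed value, 1 library against 1), with KC of CAL-29 in grey because that library is shown apart. The rows of S100A7 and S100A8 hold no value below 0, and S100A2 reaches 7.1 to 7.6 in the W variants of HT-1376.

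Over all lines, no gene passed for WWOX, AP-2α or AP-2γ in the fit with terms for the line (limma, 0% of all genes, 1591, 197 and 341 genes at an unadjusted p under 0.05). Of the other tests, edgeR called 13, 1 and 2 genes, and limma-voom on recovered reads 69, 0 and 0, none of them an S100 gene. Without the library labelled RT-112 WA or HT-1376 WA, limma again called 0 genes in each. The WWOX difference over all lines was largest for S100A2 with 2.30 (SE 0.71, adjusted p 0.29), followed by S100A8 with 1.77 (SE 0.75, adjusted p 0.375) and S100A9 with 1.56 (SE 0.66, adjusted p 0.374). For AP-2γ, S100A7, S100A8 and S100A9 had 2.81 (SE 0.92), 2.22 (SE 0.94) and 1.81 (SE 0.82), and for AP-2α 2.12 (SE 0.87), 1.64 (SE 0.89) and 1.04 (SE 0.78), with adjusted p above 0.99 in limma throughout. WC had the highest S100A8 of the variants in HT-1376 and CAL-29, with 24439 and 10430 CPM, whereas in RT-112 the highest was KA with 3758 CPM.

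S100A8 and S100A9 varied together over the libraries, and their ratio differed between the lines. S100A8 was 0.201 to 0.671 times S100A9 in RT-112 with a median of 0.286, 0.609 to 1.25 times in HT-1376 with a median of 0.996, and 0.552 to 1.46 times in CAL-29 with a median of 0.964. Of the 6 RT-112 ratios, only that of KA, 0.671, reached the range of the other lines. With the mean of its line subtracted, the correlation of log2 levels over 17 libraries was 0.975 between S100A8 and S100A9, 0.880 between S100A7 and S100A8 and 0.844 between S100A7 and S100A9, the 3 highest of the 45 pairs, and the lowest was -0.608 between S100A2 and S100A4. Line by line, S100A8 and S100A9 had a correlation of 0.627 over 6 RT-112 libraries, 0.983 over 6 HT-1376 libraries and 0.995 over 5 CAL-29 libraries. The points share their line, and those within a line share the KK library that lay lowest, so these values are descriptions. Among genes outside the listed sets, PI3, which encodes the epithelial protease inhibitor elafin, was most like S100A8 and S100A9 by this measure, with 0.969 and 0.938. MFSD2A was most like S100A2 (0.962) and IDH3G most like S100A4 (0.916). The most similar gene to S100A11 was the pseudogene S100A11P1 (0.919), listed at 3.42 to 21.5 CPM, and reads of the parent gene cannot be told apart from it here.

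**Figure D5:**
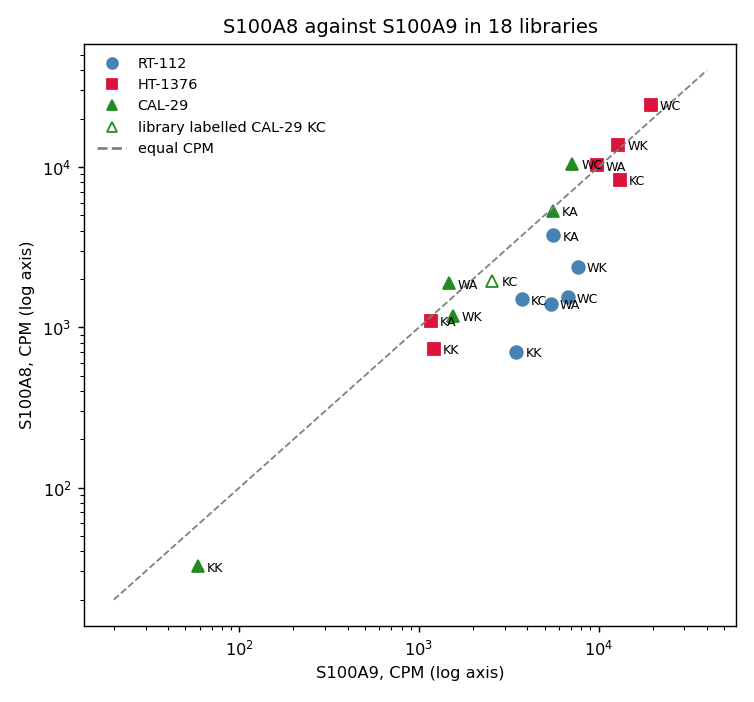
S100A8 against S100A9 (CPM, log axes) in 18 libraries, each point labelled with its variant, with the library labelled CAL-29 KC open and equal levels dashed. The RT-112 libraries lie below the dashed line at 0.201 to 0.671 times S100A9, and KK of CAL-29 lies at 32.3 and 58.6 CPM, far below the rest.

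Of 11 further genes of the S100 family, 6 were in the table and passed the filter, and 4 of the 6 differed between lines in each comparison, close to the 62.1%, 72.5% and 60.8% of all genes. S100A3, which overlaps the S100A4 locus, was at 10.0 to 58.7 CPM in HT-1376 and at most 0.95 CPM in RT-112 and 0.11 CPM in the CAL-29 libraries other than the one labelled KC. Between the lines it was highest in HT-1376, as S100A4 was. Within HT-1376 S100A3 was at 10.0, 41.5 and 58.7 CPM in KK, KA and KC and at 16.2, 10.2 and 49.0 CPM in WK, WA and WC. S100A4 was at 2660.4, 3528 and 4216 CPM and at 576, 471 and 1803 CPM in the same order. Both were highest in KC, whereas S100A3 was lowest in KK and S100A4 in WA. S100A16 and S100A13, neighbours of S100A14, were lower in CAL-29 than in RT-112 by -1.63 and -1.44, as S100A14 was. S100A7A, the copy of S100A7, was at most 11.4 CPM. S100A12, the other calcium-binding alarm protein of leukocytes, lies between S100A9 and S100A8 and reached 24.2 CPM in WC of CAL-29 and 21.3 CPM in WC of HT-1376, with 0.11 and 3.16 CPM in KK. The fused-type S100 genes such as FLG were not analysed here, and 0 of 7 were in the table.

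Partners and receptors of S100 proteins were looked at as a list, of which 10 of 12 passed the filter. Between CAL-29 and RT-112, 10 of 10 differed, 9 higher and 1 lower in CAL-29, where 72.5% of all genes were called and 56.5% were higher. The list median was 1.21 against 0.82 for all genes. Of the 10, 6 differed between HT-1376 and RT-112, against 62.1% of all genes, and 3 between CAL-29 and HT-1376, against 60.8%. ANXA2, the partner of S100A10, was higher in CAL-29 by 2.22, and ANXA1, a partner of S100A11, by 2.45, whereas S100A10 and S100A11 themselves had -0.35 and 0.12. BSG (basigin), a receptor for S100A9, was lower in CAL-29 by -0.92. TLR4, a receptor for calprotectin, was at most 0.64 CPM, and AGER was not analysed here. For WWOX in HT-1376, 1 of 10 partners passed, S100PBP, which binds S100P and fell by 1.02 on the log2 scale (SE 0.27, adjusted p 0.0470).

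Of 13 other genes from the same region of chromosome 1, 11 passed the filter and 2 were called higher with WWOX in HT-1376. There 9.71% of all genes were called in either direction, and 609 of 12991 genes were called higher. The 2 were the cornified envelope genes SPRR2A and SPRR1B. SPRR2A (chr1:153056120-153057512, minus strand) was at 0, 0.91 and 2.69 CPM in KK, KA and KC and at 59, 31.6 and 67.9 CPM in WK, WA and WC, with a log2 difference of 5.27 (SE 0.47, adjusted p 0.00129). SPRR1B (chr1:153031203-153032900, plus strand) was at 2.96, 20.8 and 11.3 CPM and at 235, 151 and 168 CPM in the same order, with 4.25 (SE 0.85, adjusted p 0.0192). Between them and S100A2 lie S100A9, S100A8, S100A7, S100A6 and S100A4, of which only S100A4 was called and in the opposite direction. S100A8 and S100A9 were higher by 3.00 and 2.35 without passing the test (adjusted p 0.11 and 0.174 by limma). S100A7 and S100A6 had 0.38 and 0.03. SPRR3, not called, was at 2.04 to 7.83 CPM in the K and 8.18 to 12.3 CPM in the W libraries. IVL (involucrin), another cornified envelope gene, was at 21.5 to 48.2 CPM in the K and 15.8 to 23.8 CPM in the W libraries, with a difference of -0.61 (SE 0.39, adjusted p 0.34). The housekeeping neighbours SNAPIN, ILF2, CHTOP and INTS3 were not called. The median difference of the 11 neighbours was -0.11, beside -0.13 for all genes.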

How the data were processed

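CAGE-seq was performed on 18 libraries, 1 per cell line and variant. The authors sequenced reads of 75 nt, mapped them to hg38 with BWA and then HISAT2 (version 2.0.5 per the submitters' processing notes), clustered tags by Paraclu within RECLU, kept clusters by their reproducibility (IDR), and deposited CPM per gene and library with 2 decimals. The annotation and the rule from clusters to genes are not given in the sources used here. In each library the values were whole multiples of 1 step for 99.97% to 99.99% of genes, against 9.09% to 18.3% with a step set too large, so reads were recovered for the count tests. In RT-112 WC this step could not be settled from the low values alone. The limit that 3 reads allow was 0.158 to 0.213 CPM and covers counting error only.

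Ensembl identifiers were matched to symbols for 16553 of 16575 genes. Genes that reached 5 CPM in 1 library or more were kept, values were set on the log2(CPM + 0.5) scale, which understates the change of low genes, and limma 3.58.1 (R 4.3.3, trended empirical Bayes, Benjamini-Hochberg, adjusted p under 0.05) was fitted over 17 libraries. The library labelled CAL-29 KC was left out by rule. Fits had terms for the line and both transductions, or the 6 variants without a block, or WWOX and second transduction terms within each line. The lists, the 10 genes and the rule that all 10 and any listed gene past the filter may be named were chosen with earlier results of these data known. As alternatives, the pseudocount was set to 0.05 or 2 CPM, the filter was left out or set to 5 CPM in 3 libraries, and the others were TMM, 18 libraries, limma-voom, edgeR 4.0.16 on recovered reads, the line as a block, and libraries left out by variant, line or second transduction, or singly (the libraries labelled RT-112 WA and HT-1376 WA, chosen after seeing the data). Libraries of different variants pair by their cell line, as the labels give it, and after the variant mean was subtracted their correlation was 0.722 to 0.915 among RT-112, 0.68 to 0.896 among HT-1376 and 0.663 to 0.881 among CAL-29 libraries. Fits were tested on simulated data. No library was a duplicate of another (chi-square per degree of freedom of at least 19.4 for every pair). Python 3.11.15 with NumPy 2.4.6, pandas 2.3.3, SciPy 1.17.1 and matplotlib 3.10.9 was used. The study's other assays were not analysed here.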

Additional observations from a re-analysis of the deposited data

Results flagged for a closer look

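The WWOX difference of S100A2 passed the test of the difference between lines in limma, with 5.10 for HT-1376 minus RT-112 (adjusted p 0.0294) and -5.16 for CAL-29 minus HT-1376 (adjusted p 0.0224), whereas CAL-29 minus RT-112 was -0.05 (adjusted p 0.995). The former call was lost with 18 libraries, with limma-voom, without each second transduction and without the library labelled RT-112 WA or HT-1376 WA, and the latter with 18 libraries, without A and without either of these WA libraries. The median HT-1376 level of S100A2 was 1809 CPM, a value that no single library of that line was near, because its K libraries were at 23.2 to 260 CPM and its W libraries at 3357 to 4599 CPM.

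S100A11 was higher in the W library of both pairs in CAL-29, by a log2 difference of at least 0.18, and lower in all 3 pairs in RT-112, by at least -0.08. These differences are small beside the SE of 0.27 and 0.22 of the fit. The test of the difference between CAL-29 and RT-112 gave 0.53 (SE 0.35, adjusted p 0.607 by limma).

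In the library labelled CAL-29 KC, which enters no comparison except the alternative with 18 libraries, 4 S100 genes were above the highest other CAL-29 library. S100A4 was at 1384 CPM against 17.4 CPM, S100A14 at 261 CPM against 87.9 CPM, S100A6 at 17958 CPM against 12068 CPM and S100A11 at 5025 CPM against 4928 CPM. S100A2 was at 45.5 CPM in it, below the 1935 CPM of the lowest other CAL-29 library and inside the range of the K libraries of HT-1376. The gap from the lowest or highest library to its neighbour, relative to the range, passed its limit in 0 of 30 groups of 5 or 6 libraries, where chance passes about 1 in 20. With so few libraries this says little. KK of CAL-29 did not pass it, although its S100A8 was 32.3 CPM against 1179 CPM or more.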

How the results depend on the processing

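The number of S100 genes called for WWOX in CAL-29 went from 1 to 0 with a pseudocount of 0.05 CPM, TMM scaling, 18 libraries, limma-voom and edgeR, and was 0 to 0 with libraries left out by second transduction. For HT-1376 minus RT-112 it went from 1 to 0 with 18 libraries and with limma-voom, and was 0 to 0 with libraries left out. For CAL-29 minus HT-1376 it went from 1 to 0 with 18 libraries and was 0 to 2 with libraries left out, where the call of S100A2 was lost without A (adjusted p 0.188). For WWOX in HT-1376 it went from 2 to 0 with 18 libraries and was 1 to 1 with libraries left out. Between CAL-29 and HT-1376 the count of 8 became 5 with 18 libraries and with edgeR, and 4 to 7 without 1 variant. Leaving out the library labelled RT-112 WA or HT-1376 WA, both chosen after seeing the data, gave 0 S100 genes for WWOX in CAL-29 and for both differences between lines, and 1 for WWOX in HT-1376 without HT-1376 WA. S100A11 in CAL-29 against RT-112 reversed from 0.12 to -0.63 with TMM scaling, -0.62 with limma-voom and -0.60 with edgeR.

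With the cell line as a replicate block, 0 S100 genes passed in the 5 comparisons against KK, as without it, and unadjusted p under 0.05 rose to 745 genes for WK, 113 for KA, 151 for KC, 365 for WA and 1819 for WC. The block with 18 libraries and with edgeR, both chosen after seeing the data, also called 0 S100 genes. In all, 2273 values of single genes stayed on their side of the threshold, the uncalled ones moving by less than their SE, 72 lost a call, 13 gained one and 119 uncalled values moved further. Each of the 10 S100 genes was above the limit of 3 reads, 0.158 to 0.213 CPM, in all libraries, whereas S100A3, S100A5, S100A7A and S100A12 of the further family genes were not.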

Other observations

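Of the keratins among the listed epithelial genes, KRT19 rose with S100A2 in HT-1376, in a comparison that called 9.71% of all genes. KRT7, KRT8 and KRT18 went the other way, and KRT5 overlapped between K and W. KRT7 was at 7331 to 8612 CPM in the K and 5108 to 6648 CPM in the W libraries. The same ranges were 1032 to 1181 and 787 to 897 CPM for KRT8, and 3750 to 4956 and 2650 to 3120 CPM for KRT18. KRT19, a keratin of simple and transitional epithelium, was at 84.7, 94.9 and 12.6 CPM in KK, KA and KC and at 378, 235 and 308 CPM in WK, WA and WC, a log2 difference of 2.67 (SE 0.51, adjusted p 0.0169 by limma). GATA3, a transcription factor of luminal urothelium, fell by 1.07 on the log2 scale in the same libraries (SE 0.21, adjusted p 0.0186), from 134 to 243 CPM in K to 73.8 to 91 CPM in W. PI3, the gene most like S100A8, was at 6.65 CPM in KK of RT-112 with a median of 36.6 CPM, at 1.91 CPM in KK of HT-1376 with a median of 30.3 CPM, and at 1.51 CPM in KK of CAL-29 with a median of 58.6 CPM. In HT-1376 its lowest level was 1.13 CPM, below KK. PI3 was picked by its likeness to S100A8 in these same libraries, so low levels in KK are not a separate observation.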
